A study of Mus musculus with 11 samples.

Results

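RUNX transcription factors, their partner CBFB and the ETO corepressors are the genes described here, in leukaemic mouse T cells exposed to 3 Runt domain inhibitors, as the labels name them. The cells are a line of T-cell acute lymphoblastic leukaemia, shortened to T-ALL. The members were taken from a list of 7 genes (Runx1, Runx2, Runx3, Cbfb, Runx1t1, Cbfa2t2 and Cbfa2t3), and every probe set carrying one of these symbols was used. Of the 7 genes, 6 had a probe set in the annotation table, 1 each and none shared with another symbol, which makes 6 of the 41345 probe sets on the array. Runx2 had no probe set in that table and is described below only by its promoter sequence.

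The line, 720, came, per the labels, from a Tcf12+/- mouse whose Tal1 transgene is under the Lck promoter, which is active in thymocytes, and all samples share this origin. Cultures were exposed for 8 h to AI-9-54 at 50 µM (4 arrays), to AI-8-45 at 100 µM (4 arrays) or to AI-7-54 at 100 µM (3 arrays, replicates 1, 3 and 4). Every difference below sets a compound against another compound, since vehicle-treated cells were not analysed here. AI-8-45 and AI-7-54 were given at the same dose, whereas in both comparisons with AI-9-54 compound and dose cannot be told apart. The labels do not say whether replicates were separate cultures, so the spread that the p-values rest on is that of these arrays and may be technical.

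RUNX proteins bind DNA through the Runt domain, and CBFB, which does not bind DNA itself, joins that domain and strengthens its hold. RUNX1 and RUNX3 act throughout T-cell development, where they silence Cd4 and help to set the choice between the helper and cytotoxic lineages, and RUNX1 sits with TAL1 on regulatory elements in T-ALL. The ETO proteins RUNX1T1 (ETO), CBFA2T2 (MTGR1) and CBFA2T3 (ETO2) are corepressors that bring NCOR, SIN3 and histone deacetylases to DNA-bound factors, among them E proteins and the TAL1 complex. RUNX1T1 is also the fusion partner of RUNX1 in human acute myeloid leukaemia with the t(8;21) translocation. The compounds are named for the domain of the RUNX protein, while the arrays measured transcript levels.

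The RUNX genes share a sequence at their distal promoters, shown here because it holds a letter sequence that the Runt domain reads, in the genes that encode it. RefSeq promoter windows (GRCm38.p6, 250 bases before to 50 after an annotated start) were held for 6 of the 7 genes, in 9 windows. The core searched was TGTGGT or its reverse complement ACCACA, on both strands. Variants of it were not searched, so the counts and shares of cores below cover these letters only. In the first window of each RUNX gene 2 cores stood in tandem within the 18 letters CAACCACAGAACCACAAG, the longest run that the 3 genes share in such windows, and the 30 bases around them are printed 5′ to 3′ on the gene's strand with the cores in capitals.
Runx1, chr16:92826025-92826054, minus strand: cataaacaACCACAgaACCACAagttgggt
Runx2, chr17:44814583-44814612, minus strand: cacaaacaACCACAgaACCACAagtgcggt
Runx3, chr4:135120503-135120532, plus strand: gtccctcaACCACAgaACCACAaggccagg

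The tandem element began at base 27 of Runx1 and base 22 of Runx2, counted from the annotated start, within the transcript. In Runx3 it lay upstream, with its first base at -136. Being the run shared by these windows, the 18 letters had to be found in them. They occurred in 4 of 32851 windows of this length in the genome table (0.0122%) on either strand, namely in these 3 and in that of Gm16225, which overlaps the Runx3 window on the other strand. At least 1 core was held by 16.8% of all windows and 2 or more by 1.81%. The second windows of Runx1 and Runx3, and those of Cbfb, Cbfa2t2 and Cbfa2t3, held none. A match describes letters and is not evidence of binding.

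Cbfa2t3 is shown next because it was the member whose transcript differed most between compounds. Its first window held the E-box CAGCTG, the kind of site that E proteins and TAL1 bind, at 2 places, starting at -146 and -104. At least 1 CAGCTG was present in 16.3% of all windows and 2 or more in 1.90%. The 250 bases upstream of the start are printed with both copies of CAGCTG in capitals, and they held neither TGTGGT nor ACCACA. Other forms of the E-box and of the RUNX site were not searched and are not marked.
Cbfa2t3, chr8:122699110-122699359, minus strand: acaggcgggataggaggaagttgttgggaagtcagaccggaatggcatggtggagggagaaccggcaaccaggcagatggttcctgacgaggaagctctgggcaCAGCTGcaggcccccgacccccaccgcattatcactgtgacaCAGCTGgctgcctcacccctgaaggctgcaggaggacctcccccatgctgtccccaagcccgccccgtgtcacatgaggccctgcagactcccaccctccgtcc

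Array values are RMA signals on the log2 scale, with array medians between 6.61 and 6.68. The first principal component over all probe sets (26.2% of the variance) separated the compounds. The second (16.2%) ran from -14.7 to -8.05 in replicates 1 and 2 and from -3.83 to 21.4 in replicates 3 and 4. This split, called the replicate set below, is not given by the labels, and members were therefore tested without and with it in the model. For the other genes below, values come from the model without the set, and calls that changed with it are named. Intervals from the model with the set may be too narrow, because the set was chosen for separating these arrays. Markers of T cells were present (Cd3e at a mean of 13.0 and Cd3g at 13.0), although Cd4 and Cd8a lay under the median of all probe sets (6.20 and 5.68). The means of 7 B-cell markers lay between 5.73 and 5.94 on all arrays and those of 11 myeloid markers between 5.78 and 5.88. Means of 5 erythroid and megakaryocyte markers were higher, from 6.81 to 6.96, with 2 genes under the median of all probe sets. Those of 8 stromal and endothelial markers ran from 7.37 to 7.57, also with 2 under it, and Pecam1 had group means from 11.2 to 11.4.

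Cbfa2t3 fell after AI-9-54 relative to AI-7-54, and it was the single member to pass the test in any comparison without the replicate set in the model. With the set in the model it was lower in all 3 comparisons, and Runx1 was lower after AI-9-54 than after either other compound. Runx3, Cbfb, Cbfa2t2 and Runx1t1 did not pass the test in any comparison under either model. The count of members called without the set was 1 of 6 for AI-9-54 against AI-7-54, where limma called 8.3% of all 41345 probe sets at an adjusted p under 0.05. It was 0 of 6 for AI-8-45 against AI-7-54 (background 2.48%) and 0 of 6 for AI-9-54 against AI-8-45 (background 0.312%), with 1 member at an unadjusted p under 0.05 in each, Cbfa2t3. With the set, 2, 1 and 2 of 6 were called in the same order, against backgrounds of 11%, 4.05% and 1.24%. Groups did not overlap in 3, 1 and 1 of 6 members, against 19.1%, 12.6% and 5.38% of all probe sets. Within each replicate set taken alone they did not overlap, in the same direction in both sets, in 3, 4 and 5 of 6 members, against 27.4%, 20.4% and 11.4%. The backgrounds cover dim and bright probe sets alike, whereas every member but Runx1t1 was brighter than at least 75.4% of probe sets. With so few members these counts say little about the family as a group.

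**Figure D1:**
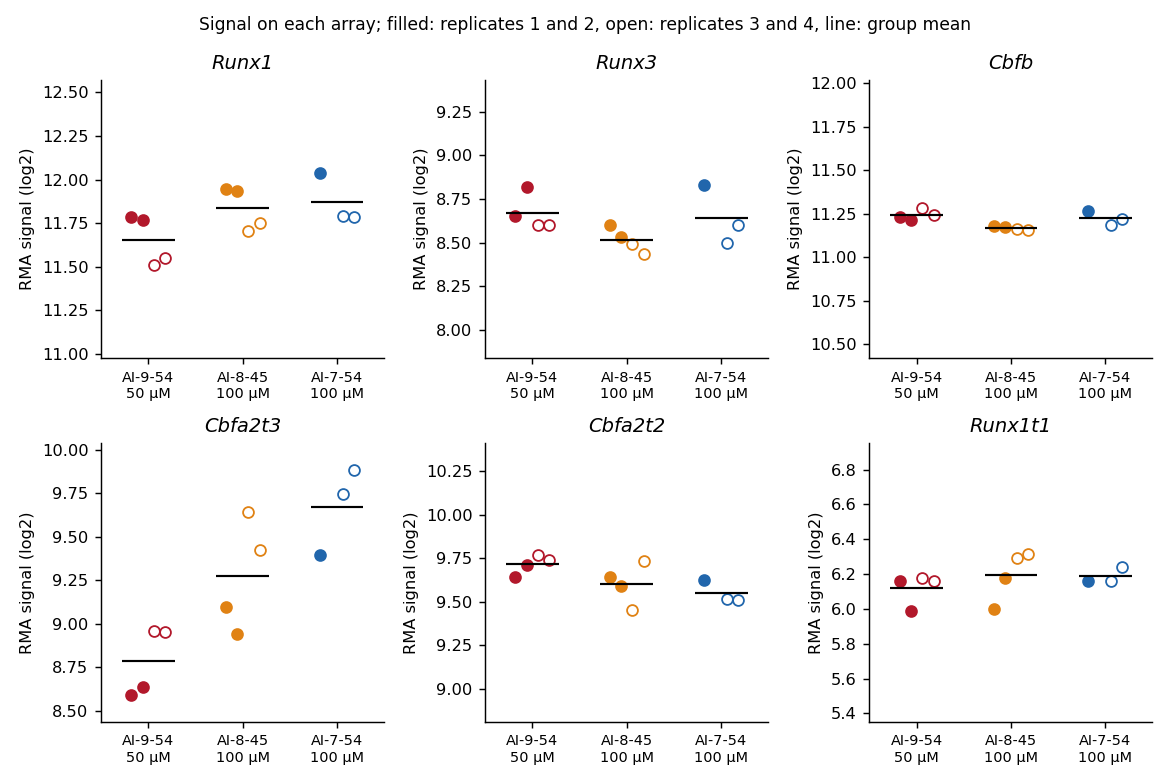
RMA signal (log2) of the 6 measured genes on each of 11 arrays, by compound; filled points are replicates 1 and 2, open points replicates 3 and 4, lines are group means, and every panel spans 1.6 log2 units. Cbfa2t3 steps up from AI-9-54 through AI-8-45 to AI-7-54 within each replicate set, whereas Cbfb stays between 11.16 and 11.28 on all arrays.

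Runx1 encodes the RUNX factor that early T-cell development depends on. Its log2 signal after AI-9-54 was 11.78 and 11.77 in replicates 1 and 2 and 11.51 and 11.55 in replicates 3 and 4. After AI-8-45 it was 11.95, 11.94, 11.70 and 11.75 in replicates 1 to 4, and after AI-7-54 it was 12.04, 11.79 and 11.79 in replicates 1, 3 and 4. All 4 AI-9-54 arrays lay below all 3 AI-7-54 arrays, by a margin that was smaller than the step between replicate sets, and the AI-8-45 arrays overlapped both other groups. Within each replicate set the 3 compounds did not overlap and had the same order, with AI-9-54 lowest and AI-7-54 highest.

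The Runx1 difference between AI-9-54 and AI-7-54 was -0.22 ± 0.10 (SE) on the log2 scale without the set (limma adjusted p 0.236). With the set in the model it was -0.26 ± 0.04 (SE, 95% interval -0.34 to -0.18, adjusted p 0.00145). In replicates 1 and 2 taken alone, with a single AI-7-54 array, the difference was -0.26, and in replicates 3 and 4 it was also -0.26. Between AI-9-54 and AI-8-45 the difference was -0.18, with an adjusted p of 0.584 without and 0.0313 with the set. At the matched dose of 100 µM, AI-8-45 and AI-7-54 differed by -0.04 (95% interval -0.25 to 0.18) without the set and by -0.08 (-0.15 to 0.0037, adjusted p 0.356) with it. That interval leaves room for a small difference, so the test does not show that these compounds act alike on Runx1.

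Runx3 encodes the RUNX factor that is best known for cytotoxic T cells. It read 8.65, 8.82, 8.60 and 8.60 after AI-9-54, 8.60, 8.53, 8.49 and 8.44 after AI-8-45, and 8.83, 8.50 and 8.60 after AI-7-54. The groups AI-9-54 and AI-8-45 met at 8.60, which 3 arrays, 1 of each group, share to the last deposited digit. Runx3 was 0.16 ± 0.08 (SE) higher on the log2 scale after AI-9-54 than after AI-8-45, which did not pass the test (adjusted p 0.592, and 0.26 with the set). AI-8-45 stood at -0.13 relative to AI-7-54 (95% interval -0.31 to 0.05) and AI-9-54 at 0.03 (-0.16 to 0.21). Within each replicate set the AI-8-45 arrays lay below those of both other compounds. Such separation was found in 20.4% of all probe sets against AI-7-54 and in 11.4% against AI-9-54. With the set, AI-8-45 against AI-7-54 had an interval of -0.29 to -0.03 (limma adjusted p 0.21). AI-9-54 against AI-8-45 had one of 0.04 to 0.27. The highest Runx3 values were those of AI-7-54 replicate 1 and AI-9-54 replicate 2, and the order of AI-9-54 and AI-7-54 was not settled.

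Cbfb encodes the non-DNA-binding partner. After AI-9-54 it read 11.23, 11.22, 11.28 and 11.24, after AI-8-45 11.18, 11.17, 11.16 and 11.16, and after AI-7-54 11.26, 11.19 and 11.22. The AI-8-45 arrays lay below all other arrays, with a standard deviation of 0.0083 (n = 4) against 0.028 (n = 4) for AI-9-54 and 0.040 (n = 3) for AI-7-54. Separated groups were common for AI-8-45 against AI-7-54 (12.6% of all probe sets) and less so for AI-9-54 against AI-8-45 (5.38%). The log2 differences were 0.08 for AI-9-54 against AI-8-45 (95% interval -0.0007 to 0.15, adjusted p 0.543) and -0.06 for AI-8-45 against AI-7-54 (-0.14 to 0.03, adjusted p 0.61). Without the set the intervals for Cbfb were the narrowest of the 6 genes, while with it those of Runx1 were narrower. The adjusted p for Cbfb with the set was 0.438 for AI-9-54 against AI-8-45 and 0.558 for AI-8-45 against AI-7-54. In the third comparison, AI-9-54 against AI-7-54, the value was 0.02 (-0.06 to 0.10).

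Cbfa2t3 encodes ETO2, a corepressor that joins the TAL1 complex in blood cells. Its log2 signal after AI-9-54 was 8.59, 8.64, 8.96 and 8.95 in replicates 1 to 4. After AI-8-45 it was 9.09, 8.94, 9.64 and 9.42, and after AI-7-54 it was 9.39, 9.74 and 9.88 in replicates 1, 3 and 4. All 4 AI-9-54 arrays lay below all 3 AI-7-54 arrays. AI-9-54 replicates 3 and 4 lay just above AI-8-45 replicate 2, and AI-8-45 replicates 3 and 4 lay above AI-7-54 replicate 1, so AI-8-45 overlapped both neighbours over the full set of arrays. Within replicates 1 and 2, and again within replicates 3 and 4, the 3 compounds did not overlap and stood in the order AI-9-54, AI-8-45, AI-7-54 from low to high.

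The mean of Cbfa2t3 was 8.78 ± 0.20 after AI-9-54 (SD, n = 4), 9.28 ± 0.32 after AI-8-45 (n = 4) and 9.67 ± 0.25 after AI-7-54 (n = 3). AI-9-54 stood 1.85-fold lower than AI-7-54, a log2 difference of -0.89 ± 0.18 (SE, 95% interval -1.28 to -0.50, limma adjusted p 0.0108). Once the replicate set was added, the difference was -0.82 ± 0.07 (SE, adjusted p 0.000102). It was -0.78 in replicates 1 and 2 taken alone and -0.86 in replicates 3 and 4. The call without the set ended when AI-7-54 replicate 4 was left out (-0.78, adjusted p 0.054). It held without any other single array, with differences from -1.03 to -0.82.

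AI-8-45 gave an intermediate level of Cbfa2t3. Relative to AI-7-54 at the same dose its log2 difference was -0.40 ± 0.18 (SE, 95% interval -0.79 to -0.0093, adjusted p 0.361) without the set, and -0.33 ± 0.07 (95% interval -0.48 to -0.17, adjusted p 0.0328) with it. AI-9-54 lay -0.49 ± 0.16 from AI-8-45 (95% interval -0.85 to -0.13, adjusted p 0.338), and with the set the same difference of -0.49 had an SE of 0.06 (adjusted p 0.00699). Within the replicate sets the first of these differences was -0.38 and -0.28, and the second was -0.40 and -0.58. For both neighbouring pairs the interval without the set excluded 0, while the p adjusted over all probe sets passed the threshold only with the set.

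**Figure D2:**
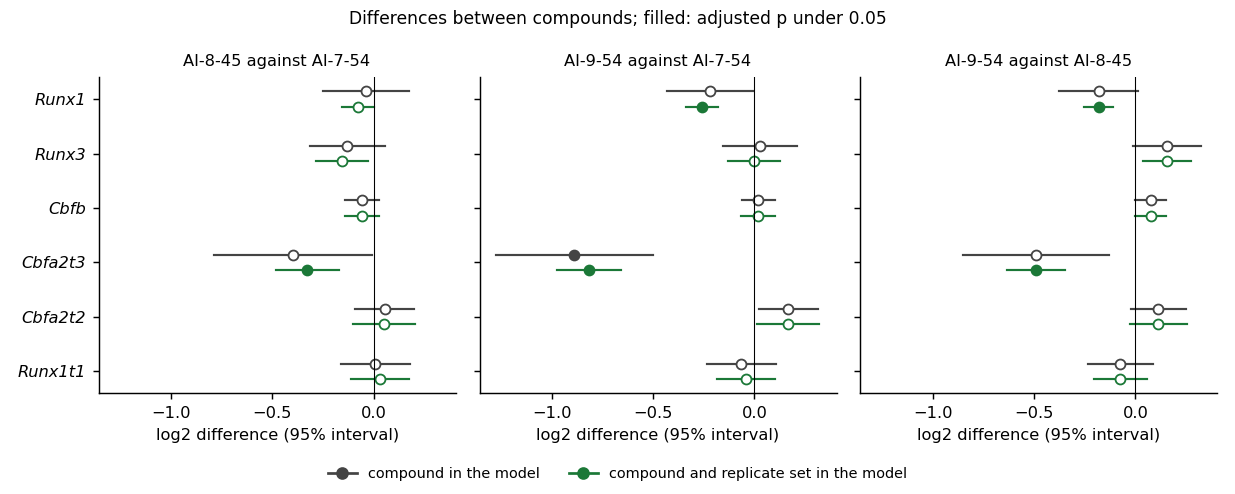
Log2 differences with 95% intervals for the 6 genes in 3 comparisons, without (grey) and with (green) the replicate set in the model; filled points have an adjusted p under 0.05. Adding the set shortened the intervals of Cbfa2t3 and Runx1 and those of Runx3 less, and left those of Cbfb and Cbfa2t2 nearly as they were.

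Cbfa2t2 encodes MTGR1. It read 9.64, 9.71, 9.77 and 9.74 after AI-9-54, 9.64, 9.59, 9.45 and 9.73 after AI-8-45, and 9.62, 9.51 and 9.51 after AI-7-54. All AI-9-54 arrays lay above all AI-7-54 arrays, the opposite order to Cbfa2t3, in a comparison where 19.1% of probe sets were separated. The log2 difference of 0.17 ± 0.07 (SE, 95% interval 0.02 to 0.31) did not pass the test (adjusted p 0.172, and 0.182 with the set). AI-8-45 lay between, at 0.05 from AI-7-54 (-0.09 to 0.20, adjusted p 0.833), and its own arrays spanned more than the gap between the other groups.

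Runx1t1 encodes ETO itself and was the dimmest member, with a mean of 6.17, below the array medians, so its signal may lie near the background of the array. It read 6.16, 5.99, 6.18 and 6.16 after AI-9-54, 6.0001, 6.18, 6.29 and 6.32 after AI-8-45, and 6.16, 6.16 and 6.24 after AI-7-54. The 3 groups overlapped over all arrays, whereas within replicates 3 and 4 the AI-8-45 arrays lay above those of both other compounds. The largest log2 difference was -0.07 (AI-9-54 against AI-8-45, 95% interval -0.23 to 0.09, adjusted p 0.838), and no difference was detectable at this signal. With the set its adjusted p was 0.717 for that pair and higher for the others.

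The members also differed in how far they moved with the replicate set. With the compound in the model, Cbfa2t3 was 0.43 higher on the log2 scale in replicates 3 and 4 than in replicates 1 and 2, a shift whose size exceeded that of 99.0% of probe sets. Runx1 shifted the other way (-0.23, larger than 94.5%), as did Runx3 (-0.16, larger than 88.1%). Runx1t1 shifted by 0.13, whereas Cbfb and Cbfa2t2 hardly moved (-0.0056 and -0.0076). These shifts are a description, since the set was defined from these arrays. Cbfa2t3 and Runx1 were thus lower together after AI-9-54 and moved in opposite directions between the replicate sets.

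The genes whose profile over the 11 arrays was closest to that of Cbfa2t3 were Tfap2a, Stra6, Wfs1, Igfbp4 and Dctpp1. Likeness was the root mean square difference between mean-centred log2 profiles, which was 0.12 for Tfap2a, 0.14 for Stra6, 0.15 for Wfs1, 0.15 for Igfbp4 and 0.16 for Dctpp1, against a median of 0.42 over 17282 named genes. Cbfa2t3 itself varied by 0.42 about its mean on this measure. Between AI-9-54 and AI-7-54 the log2 differences of these genes were -0.72 for Tfap2a, an AP-2 transcription factor gene, -0.77 for Wfs1, an endoplasmic reticulum membrane protein gene, and -0.83 for Dctpp1, a nucleotide pyrophosphatase gene. Igfbp4, which encodes a binding protein of insulin-like growth factors, stood at -0.67, and Stra6, which encodes a retinol transporter, at -0.65. These genes were picked for their likeness, so the values describe the profile and were not tested.

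**Figure D3:**
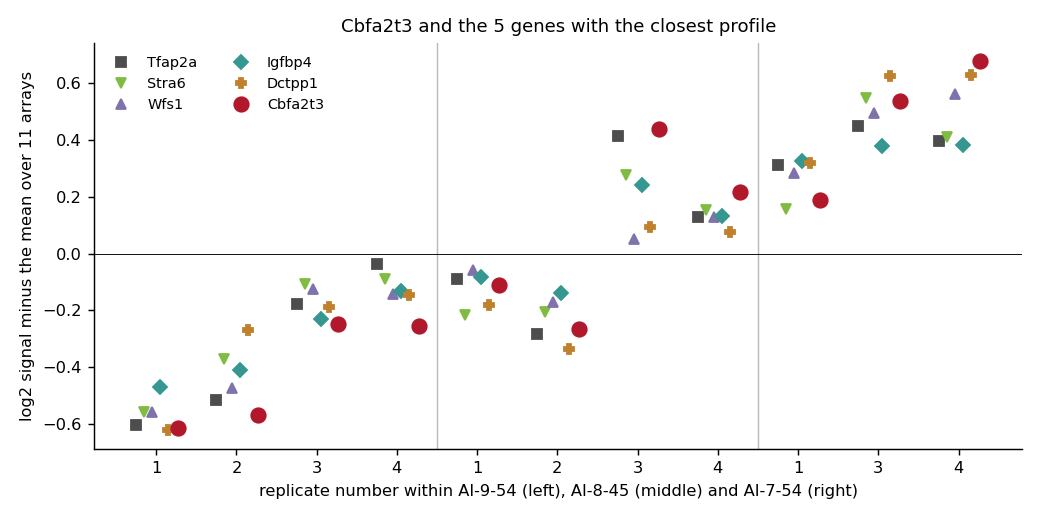
Log2 signal of Cbfa2t3 (large circles) and of the 5 genes with the closest profile, each minus its mean over 11 arrays, on the AI-9-54, AI-8-45 and AI-7-54 arrays by replicate number. All 6 genes lie below their mean on every AI-9-54 array and above it on every AI-7-54 array, and AI-8-45 replicates 3 and 4 lie above replicates 1 and 2.

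Among the genes that work with RUNX and ETO proteins, differences were found mostly between AI-9-54 and AI-7-54, and they ran in both directions. Of 80 measured genes on 5 lists, 16 were called in that comparison (20%, against 11% of all 22180 genes in the same fit), 3 for AI-8-45 against AI-7-54 (3.75% against 3.59%) and 2 for AI-9-54 against AI-8-45 (2.5% against 0.446%). With the set in the model the counts were 22 (27.5% against 14.6%), 8 (10% against 5.88%) and 9 (11.2% against 1.84%). Whether these shares differ from those of all genes was not tested, and the backgrounds were not matched for signal. The medians of mean signal of the 5 lists ran from 6.78 to 10.9, against 6.65 over all probe sets. When probe sets with a mean under this median of 6.65 were left out, 4122 of those kept were called for AI-9-54 against AI-7-54. Among all 41345 it was 3431 (8.3%), so the share called among the brighter probe sets was higher than 8.3%. The lists were chosen with earlier results of these data known. Medians of all genes lay at 0.00 on the log2 scale in every comparison, and the list medians lay between -0.04 and 0.06.

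Coactivators and enzymes that modify RUNX proteins were higher in 4 and lower in 1 of 17 genes after AI-9-54 relative to AI-7-54 (median 0.04). The lower gene was Prmt1, an arginine methyltransferase that methylates RUNX1. Its log2 signal was 9.35, 9.39, 9.39 and 9.43 after AI-9-54, 9.60, 9.45, 9.55 and 9.62 after AI-8-45, and 10.03, 10.01 and 9.92 after AI-7-54. The 3 compounds did not overlap, and Prmt1 fell by 0.60 ± 0.05 (SE, adjusted p 7.64e-05) between AI-9-54 and AI-7-54 and by 0.43 ± 0.05 (adjusted p 0.00166) between AI-8-45 and AI-7-54 at the matched dose. Higher were the acetyltransferase genes Kat6b (0.40, adjusted p 0.00112), Ep300 (0.22, adjusted p 0.0398) and Crebbp (0.20, adjusted p 0.0134) and the ubiquitin ligase gene Wwp1 (0.17, adjusted p 0.0316). Kat6b was also higher after AI-8-45 than after AI-7-54 (0.24, adjusted p 0.0427). For AI-9-54 against AI-7-54, the calls of Ep300 and Wwp1 ended when any 1 of 9 and of 6 of the 11 arrays was left out. The call of Kat6b at the matched dose ended when any 1 of 10 arrays was left out. Adding the replicate set kept all calls of this list and added Ep300 (0.23, limma adjusted p 0.0492) and Smurf2 (0.19, 0.043) at the matched dose. It also added Smurf2 and Cdk6 for AI-9-54 against AI-7-54, and Cdk6 and Wwp1 for AI-9-54 against AI-8-45.

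Corepressors recruited by these factors come next. Of 13 genes of the NCOR, SIN3 and HDAC group, 2 were higher and 0 lower after AI-9-54 relative to AI-7-54 (median 0.02), Tbl1xr1, a subunit of the NCOR complex (0.22, adjusted p 0.0121), and the class II deacetylase gene Hdac5 (0.30, adjusted p 0.0457). Hdac5 was the only gene of this list called between AI-9-54 and AI-8-45 (0.54 ± 0.08, SE, adjusted p 0.0159), with 8.16, 8.15, 8.44 and 8.29 after AI-9-54 against 7.71, 7.83, 7.63 and 7.73 after AI-8-45. With the set added, its call against AI-7-54 was lost (limma adjusted p 0.052), and the one against AI-8-45 held (adjusted p 0.0132). In the model without the set, the Hdac5 call against AI-8-45 ended when any 1 of 4 arrays was left out. Of 6 Groucho genes, 1 was lower after AI-9-54 relative to AI-7-54 (median -0.03), Tle5, a short family member that lacks the repression part of its relatives (-0.33, adjusted p 0.00662). The list of DNA-binding partners of ETO proteins also holds Ldb1 and Lmo2, which do not bind DNA themselves. Of its 14 genes, 1 was higher (median 0.01), the transcriptional repressor gene Bcl6 (0.57, adjusted p 0.0298), whose call ended when any 1 of 5 arrays was left out. For AI-8-45 against AI-7-54 limma called 0 genes of these 3 lists without the set, with 2, 1 and 2 genes at an unadjusted p under 0.05. With the set it called 1, Bcl6 (0.35, adjusted p 0.0499).

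Of 30 measured genes described as RUNX-regulated in T or blood cells, AI-9-54 gave 3 higher and 4 lower calls relative to AI-7-54 (median 0.01). Higher were the granzyme B gene Gzmb (1.93 ± 0.50, SE, adjusted p 0.0399), the IL-2 receptor alpha gene Il2ra (0.59 ± 0.10, adjusted p 0.00347) and the perforin gene Prf1 (0.47 ± 0.08, adjusted p 0.00587). Lower were the pre-T-cell receptor gene Ptcra (-0.53 ± 0.12, adjusted p 0.0199), the growth regulator gene Myc (-0.52 ± 0.11, adjusted p 0.0167), and, named after their values were seen, the T-lineage factor gene Bcl11b (-0.40) and Myb (-0.23). Gzmb read 6.81, 6.93, 8.75 and 8.75 after AI-9-54, against 5.63, 6.03 and 5.99 after AI-7-54, so the size of its difference followed the replicate set (1.24 in replicates 1 and 2 taken alone, against 2.74 in replicates 3 and 4). Its AI-7-54 values lay below the array medians and may lie near the background of the array. Its call ended when any 1 of 6 arrays was left out, that of Myc without AI-7-54 replicate 1 (adjusted p 0.0685) and that of Ptcra without AI-9-54 replicate 3 (adjusted p 0.0514). With the set the 7 calls remained and Trib2 was added to the higher genes, and Itgae, Rag2, Gata3 and Cd8b1 to the lower ones. The list holds genes that RUNX factors activate and genes that they repress, and it was not split by direction.

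At the matched dose, limma called 1 gene of this list without the set between AI-8-45 and AI-7-54, Prf1 (0.45 ± 0.08, SE, adjusted p 0.0187), a call that ended when any 1 of 3 arrays was left out. Prf1 read 8.60, 8.51, 8.43 and 8.62 after AI-8-45, against 8.23, 8.00 and 8.04 after AI-7-54, without overlap. With the set, Il2ra (0.27, limma adjusted p 0.021) and Ptcra (-0.30, 0.0485) were called as well. Between AI-9-54 and AI-8-45 the gene called without the set was Bcl11b, at 11.76, 11.81, 11.71 and 11.80 after AI-9-54 against 12.25, 12.17, 12.17 and 12.14 after AI-8-45 (-0.41 ± 0.04, SE, adjusted p 0.00324). With the set 2 genes were higher, Gzmb (1.78, limma adjusted p 0.00699) and Il2ra (0.29, 0.0217), and 4 were lower, Bcl11b, Myc (-0.44, 0.00699), Rag2 (-0.64, 0.0416) and Itgae (-0.53, 0.000456). Ptcra and Bcl11b are also on the list of 13 measured T-cell markers. Of these, 5 were lower and 0 higher in the AI-9-54 group relative to AI-7-54, where 11% of all genes were called in either direction. The mean of these markers ranged from 9.66 to 9.78 over the AI-9-54 arrays, from 9.81 to 9.95 over the AI-8-45 arrays and from 9.92 to 10.1 over the AI-7-54 arrays, the order of the Cbfa2t3 group means, and its part in the result was not tested. The CD3 genes on that list were not called between AI-9-54 and AI-7-54, with log2 differences of 0.02 for Cd3d, -0.02 for Cd3e and -0.09 for Cd3g. In bulk RNA, fewer cells with a transcript and less transcript per cell cannot be told apart.

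**Figure D4:**
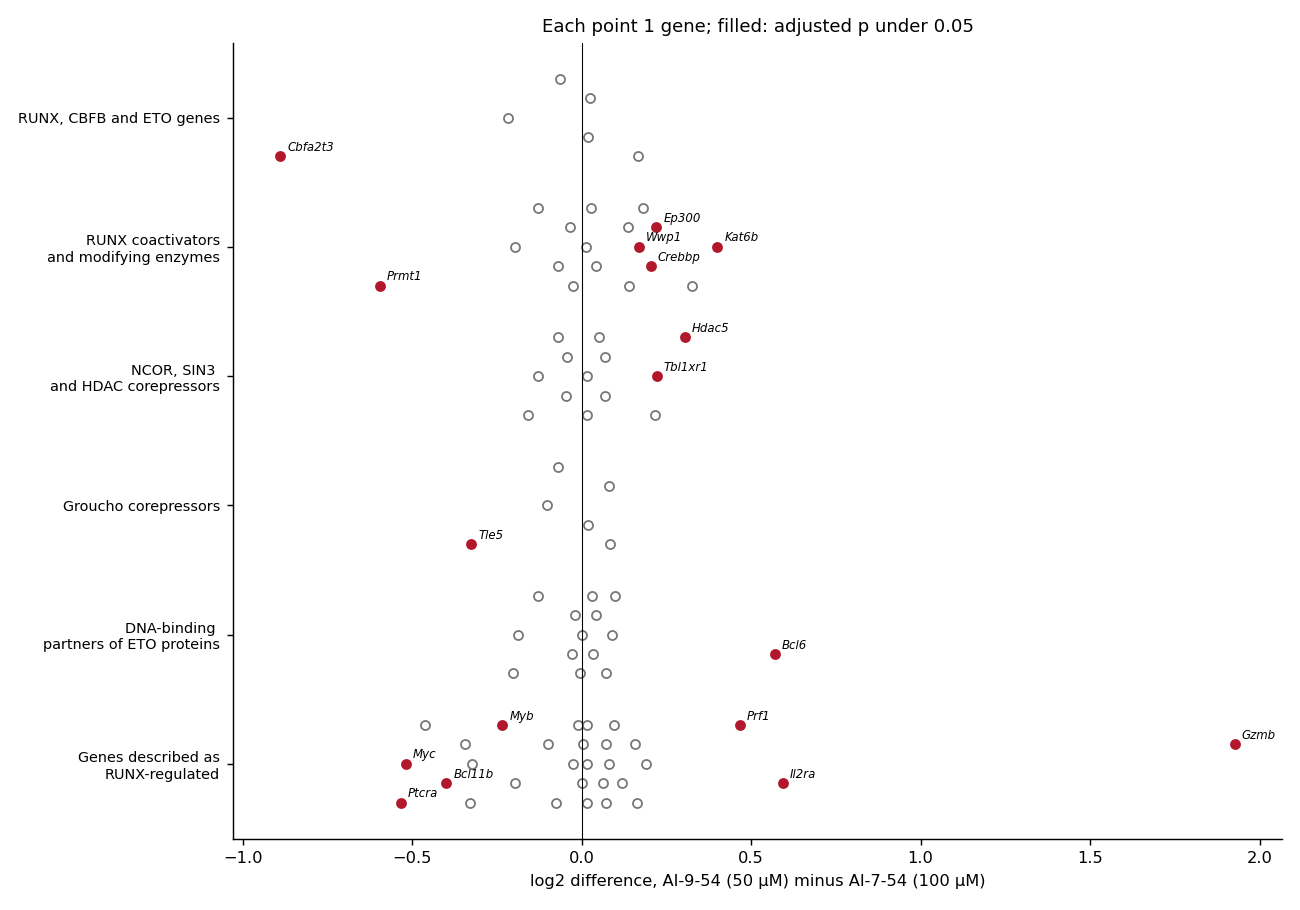
Log2 difference between AI-9-54 (50 µM) and AI-7-54 (100 µM) for the 6 measured RUNX, CBFB and ETO genes and for 80 genes on 5 lists; each point is 1 gene, named and filled where the adjusted p was under 0.05. Called genes lie on both sides of 0, with Cbfa2t3 at -0.89 the lowest and Gzmb at 1.93 the highest point.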

How the data were processed

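Single-colour arrays of 11 samples were used. RNA was amplified and biotin-labelled, per the labels' protocols. The authors deposited 1 log2 value per probe set and array, made with RMA and Partek 6.6 per the submitters' processing notes, ranging from 3.23 to 13.8. RMA removes background by model, so no background level per probe set was at hand. In 36.3% of probe sets some arrays share a value exactly. The build behind the array's own annotation was not stated in the labels, and promoter windows and gene names came from RefSeq tables of GRCm38.p6.

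All 41345 probe sets were fitted with limma 3.58.1 in R 4.3.3 (lmFit and eBayes on 3 group means, 8 residual degrees of freedom, prior 2.65), two-sided, with Benjamini-Hochberg adjustment over all probe sets of a comparison and calls at an adjusted p under 0.05. Gene lists used each gene's probe set with the highest mean. Of 23521 probe sets with 1 symbol, 23328 were found in the gene table. Arrays of a group correlated at 0.994 to 0.997, and none was a duplicate. The fit was tested on simulated data. Plots used matplotlib 3.10.9 and Python 3.11.15.

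The members and lists were chosen with earlier results of these data known. Named list genes were the called ones, up to 5 per list and comparison by size of difference, with Bcl11b and Myb added after their values were seen. Alternatives were the replicate set as a factor or each set alone, the replicate number as a block, 1 probe set per gene, 2 other scalings, a filter on dim probe sets, an intensity trend, array weights, a fit to just the 2 groups of a comparison, and leaving out each array in turn.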

Additional observations from a re-analysis of the deposited data

Results flagged for a closer look

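In AI-9-54 replicate 2 the log2 signal of Runx1t1 was 5.99, apart from the other 3 arrays of that group, which lay between 6.16 and 6.18. The gap made up 0.906 of the range of the group. This was the only such value among 42 groups of 4 arrays examined, and chance gives about 1 in 20.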

How the results depend on the processing

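The direction of Cbfa2t3 was the same under all 22 alternatives in each comparison. Its call for AI-9-54 against AI-7-54 held in 20 and ended without AI-7-54 replicate 4. In replicates 1 and 2 alone, where AI-7-54 has 1 array and no probe set was called in any comparison, its difference was -0.78 (adjusted p 0.119), which says nothing about the stability of the call. With the replicate set as a factor, members called were 1 for AI-8-45 against AI-7-54, 2 for AI-9-54 against AI-7-54 and 2 for AI-9-54 against AI-8-45, and list genes were 8 and 9 in the first and last. All probe sets called were then 1676 and 512. With the replicate block, members called were 2 for AI-9-54 against AI-7-54 (Cbfa2t3, and Runx1 at an adjusted p of 0.0109) and 1 for AI-9-54 against AI-8-45, and list genes called were 1 for AI-8-45 against AI-7-54 and 4 for AI-9-54 against AI-8-45. Arrays of the same number deviated together in 2 of 10 pairs only (r over probe sets from -0.21 to 0.30), so the numbers were not taken as pairs. Replicates 1 and 2 alone gave 0 members for AI-9-54 against AI-7-54, and 0 list genes and 0 probe sets in every comparison. Replicates 3 and 4 alone gave 0, 8 and 1 list genes and 3, 1132 and 7 probe sets. With 1 probe set per gene, 5 list genes were called for AI-8-45 against AI-7-54 and 290 in all for AI-9-54 against AI-8-45, and without dim probe sets 5 and 244. With only the groups compared, 585 and 72 probe sets were called for AI-8-45 against AI-7-54 and AI-9-54 against AI-8-45, against 1026 and 129 in the full fit. The cause of these shifts was not tested. Leaving out 1 array gave 0, 0 to 1 and 0 members, 1 to 4, 10 to 18 and 1 to 2 list genes, and 329 to 958, 1919 to 3586 and 61 to 95 probe sets.

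Uncalled values near 0 changed sign. For AI-8-45 against AI-7-54, Runx1 was 0.0029 with array weights (-0.078 to 0.047 with 1 array left out) and Cbfa2t2 -0.0085 in replicates 1 and 2. Runx1t1 was -0.073 in replicates 1 and 2, -0.0052 with quantile normalization, -0.011 with median centring and -0.019 with array weights (-0.031 to 0.075 with 1 array left out). For AI-9-54 against AI-7-54, Runx3 was -0.00077 with the set, -0.095 in replicates 1 and 2 and -0.0023 with the block (-0.046 to 0.12 with 1 array left out), and Cbfb was -0.042 in replicates 1 and 2 (-0.0002 to 0.039). Named list genes kept their direction in all 417 alternative values and lost the call in 105.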

Other observations

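With the replicate set in the model, 12 of the 30 genes described as RUNX-regulated were called between AI-9-54 and AI-7-54, 4 higher and 8 lower. The 5 added to the 7 called without it were chosen for mention after their values were seen. The integrin gene Itgae, which RUNX3 is known to activate in cytotoxic T cells, stood at -0.42 (limma adjusted p 0.000233 with the set, 0.341 without). Rag2 stood at -0.53, Gata3 at -0.29 and Cd8b1 at -0.29, and Trib2 at 0.20. The Rag2 group means, from 5.70 to 6.33, lay below the array medians, so its signal may lie near the background of the array.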
